A study of Mus musculus with 6 samples.

Results

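The genes described here are the mouse genes named for vacuolar protein sorting (Vps), the sorting nexins (Snx) and the charged multivesicular body proteins (Chmp), which together hold most subunits of retromer, the ESCRT complexes, HOPS and CORVET. They were taken by symbol: every gene whose single annotated symbol begins with Vps, Snx or Chmp followed by a digit. These symbols were chosen with earlier results of these data known. There were 75 such genes among 18193 genes with a probe set of 1 symbol, made up of 35 Vps, 30 Snx and 10 Chmp genes. Each gene was represented by the probe set with the highest mean log2 signal over all arrays. The study compared proximal tubules of Clcn5 knockout mice with those of wild type mice on Affymetrix Mouse 430 2.0 arrays, 3 per group. Each array carried RNA pooled from hand-dissected tubules of several mice. The labels give 3 to 4 mice per pool, whereas the array records give 7. The part of Clcn5 that was disrupted, and the strain, sex and age of the mice, are not given in the sources used here.

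The product of Clcn5, ClC-5, exchanges chloride for protons in endosomes of proximal tubule cells, which take up filtered proteins by endocytosis. After uptake, a receptor or its cargo is sorted on the endosome. Retromer and sorting nexins return cargo from endosomes to the trans-Golgi network or the cell surface. The ESCRT complexes sort ubiquitin-tagged cargo into the inner vesicles of multivesicular bodies. The tethering complexes CORVET and HOPS promote fusion of early endosomes and of late endosomes with lysosomes, and GARP tethers carriers that arrive from endosomes at the trans-Golgi network.

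The values are the authors' MAS5 signals on a linear scale, with the same trimmed mean of 150 on every array (2% left out at each end). The median signal was 40.9 to 48.8 on knockout arrays and 42.6 to 45.3 on wild type arrays, with the highest on knockout array 3, the only array whose record gives another solution lot. Fluidics station 2 held knockout array 3 and wild type array 2, and station 1 held the rest. All 4 probe sets of Clcn5 were lower in knockout tubules. The one that represents the gene had signals of 352, 322 and 269 in knockout tubules, against 1013, 709 and 1029 in wild type tubules. Summed signals of 9 markers of early proximal tubule (S1 and S2) were 29727 to 31941 in knockout and 30847 to 34658 in wild type arrays, with 2 of the 9 above 0 in log2 difference. Markers of other cells were read as well. Sums were 2876 to 2969 in knockout and 1969 to 2003 in wild type arrays for 9 leukocyte markers (9 above 0), 1271 to 1542 in knockout and 1023 to 1069 in wild type arrays for 5 podocyte markers (5 above 0), and 13959 to 15408 in knockout and 11792 to 12331 in wild type arrays for 6 markers of the thick ascending limb (5 above 0). For 4 markers of the distal convoluted and connecting tubule they were 8476 to 8980.5 in knockout and 6881 to 7919 in wild type arrays (3 above 0). The largest difference there was in Calb1, with means of 5300 in knockout and 3917 in wild type. Slc12a3 lay below 0, with means of 2603 in knockout and 2847 in wild type. Sums of 6 markers of the late proximal tubule (S3) were 10141 to 10733 in knockout and 9207 to 9696 in wild type arrays (3 above 0). The largest difference there was in Slc7a13, with means of 4777 in knockout and 3692 in wild type. Acsm3, Atp11a and Cyp7b1 lay below 0. Sums of 7 fibroblast or muscle markers were 1071 to 1093 in knockout and 897 to 958 in wild type arrays. Of these 7 markers 5 were tested (5 above 0). Endothelial sums over 7 markers were 1632 to 1677 in knockout and 1572 to 1628 in wild type arrays (4 above 0). Collecting duct sums over 8 markers were 3572 to 3815 in knockout and 3695 to 4022 in wild type arrays (4 above 0). By the test described below, 2 of these 8 passed as higher (Slc4a1 and Slc26a4) and 2 as lower (Aqp3 and Aqp2). By the same test 3 leukocyte, 2 podocyte, 2 thick ascending limb, 3 distal convoluted and connecting tubule markers and 1 S3 marker passed as higher. Of the S1 and S2 markers 2 passed as lower (Slc6a19 and Slc7a7). No endothelial, fibroblast or muscle marker passed. Over all tested genes 3.24% passed in each direction. No probe set in the whole table had a signal of 0 or under, so a marker signal above 0 does not by itself show that its cells were present. The part of these cells in the results below was not tested. In such pooled tissue, fewer cells of a type and less RNA per cell cannot be told apart.

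A probe set entered the test if its mean log2 signal reached the median of all probe sets that are not controls, a signal of 41.9. This left 71 of the 75 genes, 94.7%, where 63.9% of all genes on the array were left. The 4 dim genes were Snx20, Snx32, Vps13c and Vps25. Snx20 had signals of 4.73, 38.2 and 38.4 in knockout tubules, against 34.9, 28.6 and 28.5 in wild type tubules. Vps25, a subunit of ESCRT-II, had 37, 16.9 and 35.2 in knockout tubules, against 22.6, 20.3 and 18.2 in wild type tubules. Snx32 lay at 23.7 to 37.9 in knockout and 24.6 to 27.5 in wild type tubules, and Vps13c at 27.2 to 45.7 in knockout and 32.0 to 35.8 in wild type tubules. The groups overlapped in all 4 genes. No detection calls were used here, so these signals could not be told from background.

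Of the 71 tested genes, 4 passed limma's threshold (adjusted p under 0.05 over 11620 genes): Vps8 and Vps53 were higher in knockout tubules, and Vps13a and Snx5 were lower. Over all tested genes 6.48% passed, 3.24% in each direction, so that the share of 5.63% among the Vps, Snx and Chmp genes is near the background. The knockout and wild type signals did not overlap in 18 of the 71 genes (25.4%), against 25.2% of all tested genes, and an unadjusted p under 0.05 was reached by 12 (16.9%), against 19.4%. The median log2 difference was −0.01, beside 0.01 over all tested genes, and the median size of a difference was 0.12, beside 0.13. In 40 of the 71 genes the groups differed by less than 1.1-fold, and in 62 of the 67 genes that did not pass, the 95% interval of the difference lay inside 1.5-fold in either direction. All 71 intervals lay inside 2-fold. The plot of all tested genes by role shows these differences with their intervals.

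**Figure D1:**
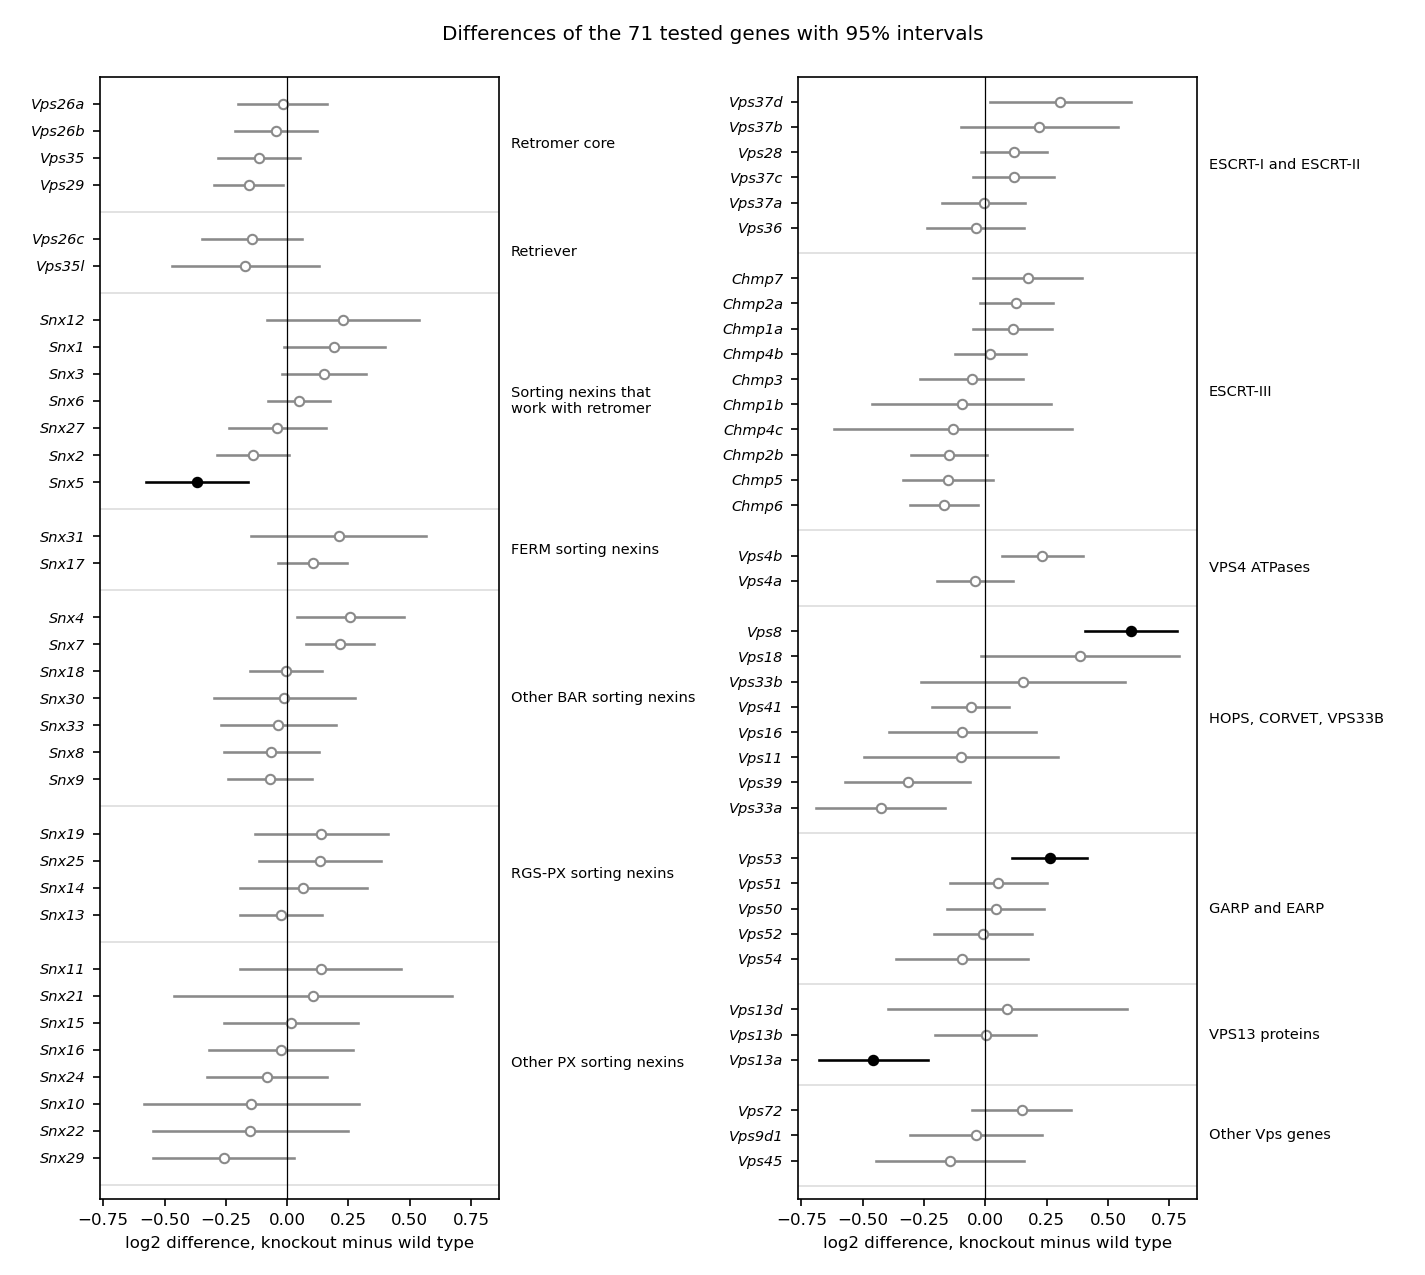
Log2 differences, knockout minus wild type, of the 71 tested genes (dots) with 95% intervals from limma (lines), grouped by role. Filled black dots mark the 4 genes with an adjusted p under 0.05; Vps8 lies highest at 0.59 and Vps13a lowest at −0.46, and most open dots lie close to 0.

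The sequences around the start sites of the 4 genes that passed are shown because these are the genes on which the comparison turns. Each runs from 250 bases before to 50 bases after the start and is taken from RefSeq (GRCm38.p6), 5′ to 3′ on the gene's strand. Capitals mark matches on either strand to CACGTG, the core letters of the E-box, to GGGCGG, the GC box, and to CGGAAG, letters common to sites of ETS factors.
Vps8, chr16:21422868-21423167, plus strand: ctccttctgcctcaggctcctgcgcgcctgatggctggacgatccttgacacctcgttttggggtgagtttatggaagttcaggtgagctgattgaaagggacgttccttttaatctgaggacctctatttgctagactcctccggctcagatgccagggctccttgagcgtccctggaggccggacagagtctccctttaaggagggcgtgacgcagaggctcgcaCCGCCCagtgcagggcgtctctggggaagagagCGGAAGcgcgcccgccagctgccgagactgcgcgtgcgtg
Vps13a, chr19:16780884-16781183, minus strand: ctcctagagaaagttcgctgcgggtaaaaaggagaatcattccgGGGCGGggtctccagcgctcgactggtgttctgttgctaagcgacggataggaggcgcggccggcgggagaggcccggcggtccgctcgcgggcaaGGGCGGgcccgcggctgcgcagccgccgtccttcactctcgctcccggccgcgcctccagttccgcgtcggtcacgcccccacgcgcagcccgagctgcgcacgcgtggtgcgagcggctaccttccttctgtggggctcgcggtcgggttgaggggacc
Snx5, chr2:144270523-144270822, minus strand: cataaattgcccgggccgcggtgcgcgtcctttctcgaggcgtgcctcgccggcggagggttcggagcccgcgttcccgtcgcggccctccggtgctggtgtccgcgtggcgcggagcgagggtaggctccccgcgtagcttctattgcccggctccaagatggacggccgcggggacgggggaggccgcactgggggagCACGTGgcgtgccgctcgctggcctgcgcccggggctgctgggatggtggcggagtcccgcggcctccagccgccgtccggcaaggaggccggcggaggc
Vps53, chr11:76179589-76179888, minus strand: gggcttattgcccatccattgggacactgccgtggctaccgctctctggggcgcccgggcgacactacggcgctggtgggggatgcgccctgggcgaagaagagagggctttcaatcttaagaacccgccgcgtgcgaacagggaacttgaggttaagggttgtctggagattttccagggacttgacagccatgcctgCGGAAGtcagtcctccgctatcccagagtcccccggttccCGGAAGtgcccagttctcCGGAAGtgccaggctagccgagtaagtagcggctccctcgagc

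No marked match overlapped another. CACGTG stood in the window of Snx5 alone among the 4, 50 bases before the start. GGGCGG stood in those of Vps8 and Vps13a, and CGGAAG in those of Vps8 and Vps53, the last with 3 matches. These letters are common: CACGTG was in 11.8%, GGGCGG in 66.8% and CGGAAG in 33.8% of 9402 tested genes with a window in the table. In 49 of the Vps, Snx and Chmp genes with a window the shares were 14.3%, 71.4% and 38.8%. Over all 32851 windows they were 7.15%, 35.7% and 16.9%. A match is a description of the letters and not a site at which a factor was measured.

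Vps8 showed the largest rise of the 71 genes. It encodes a subunit that CORVET has and HOPS lacks. Its signals were 563, 493 and 500.1 in knockout tubules, against 366, 351 and 314 in wild type tubules. Every knockout array lay above every wild type array, with a gap wider than the range within either group. The means were 519 ± 38.6 in knockout and 344 ± 26.9 in wild type (SD, n = 3 arrays each), a rise of 1.51-fold (log2 difference 0.59, SE 0.08, limma adjusted p = 0.00157). Its other probe set, 1434050_at, had signals of 461, 463 and 395 in knockout tubules, against 248, 221 and 226 in wild type tubules. There the rise was 1.89-fold (log2 difference 0.92, limma adjusted p = 0.000246 in a fit over 22519 probe sets). The log2 difference was 0.63 on station 1 and 0.51 on station 2, which held 1 array of each group. Vps8 was the only one of the 4 genes that passed in all 16 alternative settings, with a log2 difference of 0.53 to 0.76.

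The other CORVET and HOPS genes lay in both directions. None of the other 7 genes of this list, which includes Vps33b, passed the test, where 6.48% of all tested genes did. Of the 7, 2 lay above 0 and 5 below. CORVET and HOPS share a core of VPS11, VPS16, VPS18 and VPS33A. Vps33a, which encodes the Sec1/Munc18-type subunit that engages SNARE proteins, had signals of 123, 109 and 111 in knockout tubules, against 156, 164 and 141 in wild type tubules. The groups did not overlap, but the log2 difference of −0.43 (SE 0.12) missed the threshold (limma adjusted p = 0.0619). It passed only where the filter on dim probe sets was raised to a signal of 90.2 (adjusted p = 0.0494), and its other kept probe set was at −0.18.

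Vps18, another core subunit, was at 149, 105 and 176 in knockout tubules, against 97.9, 107 and 118 in wild type tubules. Its groups overlapped through knockout array 2, and the interval of the log2 difference ran from −0.02 to 0.79 around 0.38. That value was 0.22 without knockout array 3 and 0.59 without knockout array 2. The other kept probe set of Vps18 was at −0.06, and the mean of both gave 0.16. Vps11 had signals of 191, 157 and 248 in knockout tubules, against 191, 182 and 262 in wild type tubules. Vps16 had 112, 114 and 102 in knockout tubules, against 118, 103 and 129.6 in wild type tubules. The arrays of both groups were intermixed for these 2 genes, with log2 differences of −0.10 and −0.09.

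VPS39 and VPS41 are the subunits that give HOPS its contacts with late endosomes and lysosomes. Vps39 had signals of 121, 121 and 124 in knockout tubules, against 147, 141 and 169 in wild type tubules. The groups did not overlap, and the log2 difference was −0.32 (SE 0.12, limma adjusted p = 0.155). Vps41 had 439, 434 and 479 in knockout tubules, against 451, 469.8 and 488 in wild type tubules, with overlapping groups and a log2 difference of −0.06. Vps33b, whose product works in a separate complex with VIPAS39 and whose loss in humans causes a syndrome with renal tubular dysfunction, was at 0.15 (95% interval −0.26 to 0.57). Tgfbrap1, which encodes the other subunit particular to CORVET, was at 0.07 (95% interval −0.14 to 0.29). The plot of signals by complex sets Vps8 and the HOPS genes beside retromer.

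**Figure D2:**
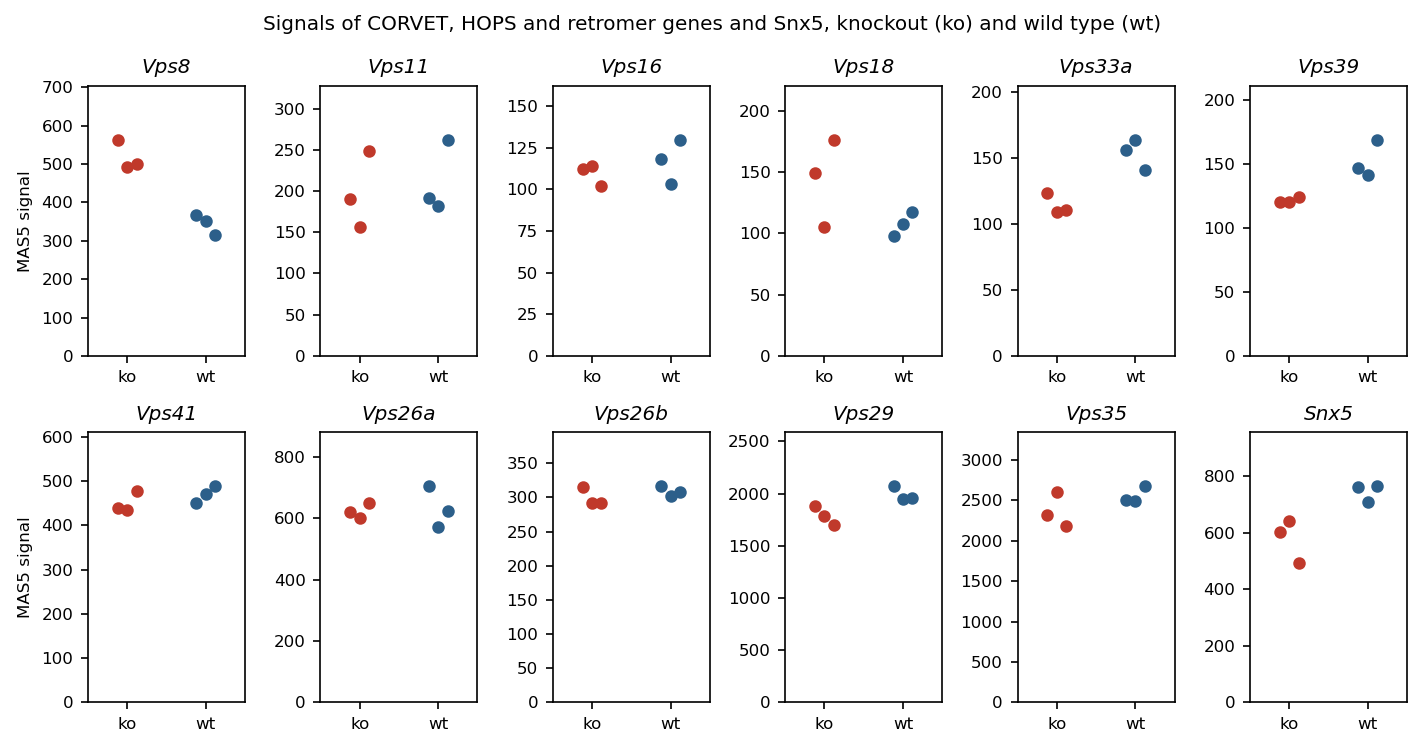
MAS5 signals on a linear scale in knockout (red, left) and wild type (blue, right) arrays, 1 point per array in the order of the array numbers, for Vps8, the HOPS genes, the retromer core and Snx5. The points of Vps8, Vps33a, Vps39, Vps29 and Snx5 do not overlap between the groups, with Vps8 higher and the others lower in knockout.

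The core of retromer is a trimer of VPS35 with VPS29 and either VPS26A or VPS26B. Log2 differences of its 4 genes ran from −0.16 to −0.02. None of the 4 genes passed limma's test, where 6.48% of all tested genes did. An unadjusted p under 0.05 was reached by 1 (Vps29), and by 19.4% of all tested genes. All 4 had a log2 difference below 0, and their median was −0.08. Vps35 had signals of 2312, 2598 and 2180.04 in knockout tubules, against 2500.1, 2489.6 and 2670.5 in wild type tubules. Vps26a had 619, 601 and 648 in knockout tubules, against 703, 571 and 624 in wild type tubules. Vps26b had 315, 292 and 291 in knockout tubules, against 316, 303 and 308 in wild type tubules. The groups overlapped in these 3 genes, and their 95% intervals ran from −0.28 to 0.05, from −0.20 to 0.16 and from −0.21 to 0.12. These values are of the probe sets that represent the genes. Another kept probe set of Vps26b, 1428246_at, was at 0.12 (limma adjusted p = 0.597 over probe sets). Its signals were 164, 170 and 161 in knockout tubules, against 151, 148 and 156 in wild type tubules, without overlap.

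Vps29 was the one core gene whose groups did not overlap in the probe set that represents it. Its signals were 1880.4, 1785 and 1699 in knockout tubules, against 2069, 1951 and 1954 in wild type tubules. The log2 difference of −0.16 (SE 0.06) did not pass (limma adjusted p = 0.204). Of its other kept probe sets, 1417659_at was at −0.17 and 1435565_at at 0.22, so they did not share a direction, and the mean of the kept probe sets gave −0.03. VPS29 also belongs to retriever, a related complex with VPS26C and VPS35L that works with SNX17. Vps26c was at −0.14 and Vps35l at −0.17, and neither passed (limma adjusted p = 0.446 and 0.561). Other kept probe sets of Vps35l were at −0.46 without overlap and at 0.19 with overlapping groups (limma adjusted p = 0.226 and 0.702 over probe sets).

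Of the sorting nexins that work with retromer, 1 of 7 tested genes passed as lower and none as higher. Over all tested genes 3.24% passed in each direction. Retromer acts with dimers that pair SNX1 or SNX2 with SNX5 or SNX6, which curve the membrane through their BAR domains. SNX5 also binds cargo such as the mannose 6-phosphate receptor. Snx5 had signals of 603, 643 and 494 in knockout tubules, against 761, 709 and 764 in wild type tubules. All knockout arrays lay below all wild type arrays, and knockout array 3 lay well below the other knockout arrays. The means were 579.9 ± 77.2 in knockout and 745 ± 30.8 in wild type (SD, n = 3 each), a fall of 1.29-fold (log2 difference −0.37, SE 0.09, limma adjusted p = 0.0444). Its other 3 kept probe sets were at −0.02, −0.10 and −0.26, and averaging all of them gave −0.19 (limma adjusted p = 0.185). The difference was −0.29 on station 1 and −0.52 on station 2. Without knockout array 3 the log2 difference was −0.26 (adjusted p = 0.0703), and the call also ended without knockout array 1 or any of the wild type arrays (adjusted p 0.0578 to 0.151).

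The partners of Snx5 went different ways, and none passed. Snx2 had signals of 506, 527 and 486 in knockout tubules, against 538, 573 and 564 in wild type tubules, without overlap (log2 difference −0.14, limma adjusted p = 0.278). Snx1 was at 0.19 and Snx6, which can stand in for Snx5 in the dimer, at 0.05. Snx3, whose product pairs with retromer without a BAR domain, was at 0.15, and Snx27, whose PDZ domain binds receptors bound for the cell surface, at −0.04. Snx12, a relative of Snx3, was at 0.23 with overlapping groups, 0.08 within station 1 and 0.52 on station 2, and its other kept probe set was at −0.06. The other kept probe set of Snx27, 1430037_at, had signals of 168, 158 and 149 in knockout tubules, against 124, 123 and 118 in wild type tubules. These groups did not overlap, and the log2 difference of 0.38 missed the threshold (limma adjusted p = 0.0888 over probe sets).

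No gene passed limma's test among the other 21 tested sorting nexins, and Snx7 and Snx4 were the 2 with an unadjusted p under 0.05. The shares over all tested genes were 6.48% and 19.4%. Snx7 had signals of 1049.8, 1168 and 1083 in knockout tubules, against 953, 954 and 934 in wild type tubules. Snx4, whose product forms dimers with SNX7 and acts in recycling and autophagy, had 361, 377 and 463 in knockout tubules, against 338, 347 and 314 in wild type tubules. Neither pair of groups overlapped. The log2 differences were 0.21 for Snx7 and 0.26 for Snx4, and both missed the threshold (limma adjusted p = 0.0747 and 0.176). Without knockout array 3 Snx4 was at 0.15, its other kept probe set was at 0.06, and the mean of both gave 0.16. The other BAR sorting nexins, among them Snx9 and Snx18, which act with dynamin at clathrin-coated pits, lay between −0.07 and −0.01. The other kept probe set of Snx9 was at −0.31, with 301, 355 and 254 in knockout tubules, against 359, 382 and 376 in wild type tubules, groups that did not overlap (limma adjusted p = 0.189 over probe sets). Snx17, which binds LRP1 and other receptors through its FERM domain, was at 0.10, and its relative Snx31 at 0.21. The 4 sorting nexins grouped as the RGS-PX family ranged from −0.02 for Snx13 to 0.14 for Snx19. The rest, mostly with a PX domain alone, ranged from −0.26 for Snx29 to 0.14 for Snx11.

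No Vps gene of ESCRT-I or ESCRT-II and no Chmp gene passed limma's test. Among these Vps37d and Chmp6 were the 2 with an unadjusted p under 0.05. Of all tested genes 6.48% passed, 19.4% had such a p, and 25.2% had groups that did not overlap. Of the 6 tested Vps genes of ESCRT-I and ESCRT-II, 4 lay above 0, with a median log2 difference of 0.12. Vps37d, one of 4 alternative VPS37 subunits, had signals of 130.2, 127 and 158 in knockout tubules, against 119, 107 and 109 in wild type tubules. The groups did not overlap (log2 difference 0.31, SE 0.13, limma adjusted p = 0.225), and the difference within station 1 was 0.18. Vps28, whose product is a fixed subunit of ESCRT-I, was at 0.12 and Vps37c at 0.11, both also without overlap. Vps36, of ESCRT-II, was lowest at −0.04. The other kept probe sets of Vps36 were lower, at −0.37 and −0.44, and these did not pass either (limma adjusted p = 0.16 and 0.132 over probe sets).

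ESCRT-III forms the filaments that cut the neck of the budding vesicle. Of its 10 tested Chmp genes, 4 lay above 0 and 6 below, with a median of −0.08. Chmp6, whose product links ESCRT-II to the filament, had signals of 663, 616 and 613 in knockout tubules, against 701, 702 and 722 in wild type tubules. Chmp2b, whose product joins the filament late, had 471, 503 and 440.05 in knockout tubules, against 524, 521 and 520.5 in wild type tubules. The groups of both genes did not overlap, and the differences were small: −0.17 for Chmp6 and −0.15 for Chmp2b (limma adjusted p = 0.165 and 0.285). By the probe sets that represent the genes, the highest of the 10 was Chmp7 at 0.17. Chmp3 was at −0.06, but its other kept probe set was at 0.31 with overlapping groups (limma adjusted p = 0.237 over probe sets).

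VPS4A and VPS4B are the ATPases that take ESCRT-III filaments apart. Vps4b had signals of 1061, 1065 and 1024 in knockout tubules, against 989.6, 875 and 824 in wild type tubules. The groups did not overlap (log2 difference 0.23, SE 0.07, limma adjusted p = 0.107). Its other kept probe set was dim and at −0.10, and the mean of both gave 0.07. Vps4a had 372, 386 and 361 in knockout tubules, against 398, 377 and 376 in wild type tubules, and its 95% interval ran from −0.20 to 0.11. The difference between these 2 genes was not tested.

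Vps53 rose among the 5 genes of GARP and its relative EARP, and the other 4 did not pass, where 6.48% of all tested genes did. VPS53 is shared by both complexes with VPS51 and VPS52, while VPS54 belongs to GARP and VPS50 to EARP. Vps53 had signals of 576, 515 and 540.2 in knockout tubules, against 444, 465 and 448 in wild type tubules. The groups did not overlap. The means were 543 ± 30.6 in knockout and 452 ± 11.3 in wild type (SD, n = 3 each), a rise of 1.2-fold (log2 difference 0.26, SE 0.07, limma adjusted p = 0.0495). Its other kept probe sets were at 0.23 and 0.32. The call lay at the edge of the threshold: it ended when any of the 6 arrays was left out (adjusted p 0.0528 to 0.172) and with the fluidics station as a block (0.0669). The within-station log2 differences were 0.29 and 0.22. Vps50, Vps51, Vps52 and Vps54 ranged from −0.10 to 0.05.

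Vps13a fell among the 3 tested VPS13 genes, where 3.24% of all tested genes passed as lower. VPS13 proteins are long channels that carry lipids between membranes at contact sites, and loss of VPS13A in humans causes a neurodegenerative disease with misshapen red cells. Vps13a had signals of 153, 145 and 139 in knockout tubules, against 192, 195 and 212 in wild type tubules. The groups were well apart, with little spread within each. The means were 146 ± 7.01 in knockout and 199.8 ± 10.5 in wild type (SD, n = 3 each), a fall of 1.37-fold (log2 difference −0.46, SE 0.10, limma adjusted p = 0.0192). The difference was −0.44 on station 1 and −0.49 on station 2. Its other kept probe set, 1430154_at, showed no such gap, with 75.8, 72.6 and 94.3 in knockout tubules, against 86.8, 74.7 and 89.3 in wild type tubules. The mean of both gave −0.25 (adjusted p = 0.209), and the call also ended without knockout array 2 or any of the wild type arrays (adjusted p 0.0540 to 0.0936). Vps13b was at 0.00 and Vps13d at 0.09, and the other kept probe sets of Vps13d were at −0.43 and −0.33. The plot of the signals of the 4 genes shows the spread behind each call.

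**Figure D3:**
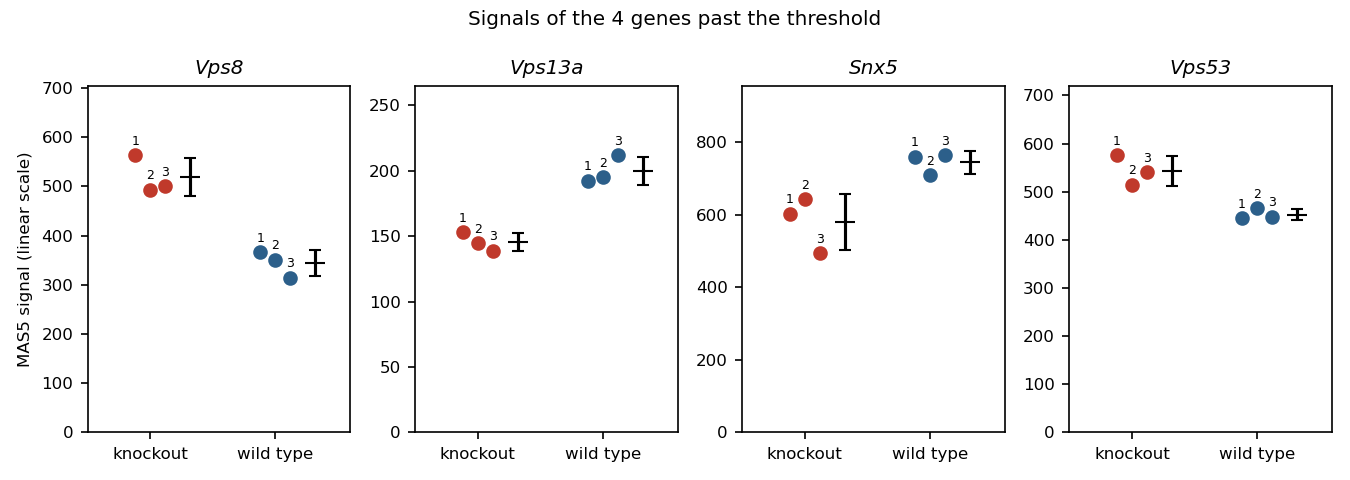
MAS5 signals on a linear scale of the 4 genes past the threshold in knockout (red, left) and wild type (blue, right) arrays, numbered by array, with the mean and SD in black. In none of the 4 genes do the groups overlap; Snx5 is lowest on knockout array 3, at 494.

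The last 3 Vps genes did not pass. Vps72, which despite its name encodes a subunit of chromatin remodelling complexes in mammals, was at 0.15 and its groups did not overlap. Vps45, a Sec1/Munc18-type regulator of endosomal SNARE proteins, was at −0.14. Vps9d1, whose protein carries the domain that activates Rab5-type GTPases, was at −0.04. Its other kept probe set was at 0.84, with 84.7, 57.2 and 66.0 in knockout tubules, against 56.0, 63.5 and 15.7 in wild type tubules. Wild type array 3 lay far below the other arrays there, and the difference did not pass (limma adjusted p = 0.392 over probe sets).

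Probe sets of a gene often disagreed on these small differences. The 75 genes have 159 probe sets with their symbol alone, of which 125 were kept, and 37 genes had more than 1 kept. In 22 of the 37 all kept probe sets had the same sign, among them all 4 genes that passed. Taken by probe set, 3 of the 125 passed, where 4.76% of all 22519 kept probe sets did: both of Vps8 and 1457674_at of Vps13a. Probe sets of 1 gene can read different transcript ends, and which ends they read is not given in the sources used here. The plot of probe sets shows where they part.

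**Figure D4:**
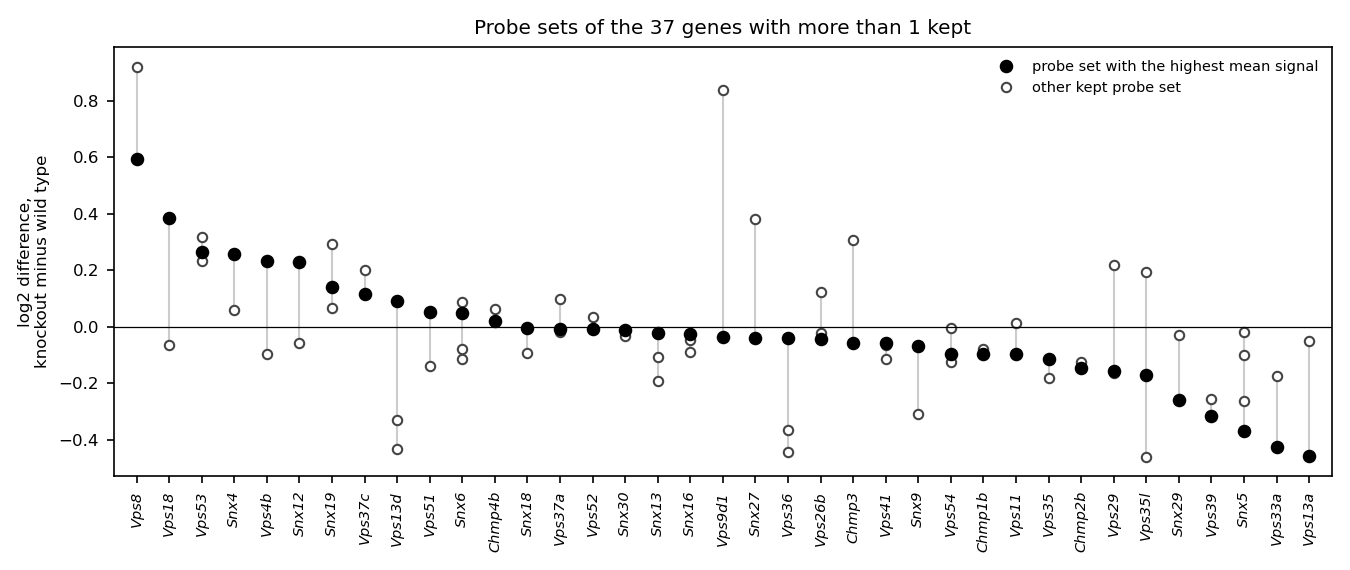
Log2 differences, knockout minus wild type, of every kept probe set of the 37 genes with more than 1, ordered by the probe set that represents the gene (filled); open circles are the other kept probe sets. Both probe sets of Vps8 lie high, at 0.59 and 0.92, whereas those of genes such as Vps9d1, Vps35l and Vps29 lie on both sides of 0.

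Genes whose products work with these complexes were read from the same fit. Of 62 such genes, all tested, 1 fell and none rose by limma, where 6.48% of all tested genes passed. An unadjusted p under 0.05 was reached by 8 of the 62, and by 19.4% of all tested genes. The gene that fell was Ehd1, whose ATPase acts in endosomal recycling, with signals of 550.2, 496 and 508 in knockout tubules, against 624, 608 and 629.9 in wild type tubules (log2 difference −0.26, SE 0.07, limma adjusted p = 0.0435). Its groups did not overlap, and the call ended without each array except knockout array 1. The median over the 62 genes was 0.00, and the median size of a difference was 0.09, beside 0.01 and 0.13 over all tested genes.

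By role, none of 14 genes of ESCRT-0 and other ESCRT partners passed. Tsg101, the ESCRT-I subunit that binds ubiquitin-tagged cargo, came nearest, with 435, 534 and 548 in knockout tubules, against 382, 387 and 421 in wild type tubules. Its groups did not overlap (log2 difference 0.34, SE 0.09, limma adjusted p = 0.0612). Ubap1, of ESCRT-I, was at 0.18. Among 10 retromer partners, which include the actin-regulating WASH complex, Ehd1 was the 1 that fell, and Washc5 (0.19) and Washc1 (−0.19) followed. None of the 12 Commander genes read passed, where Commd2 and Commd1 had the smallest p, at 0.25 and 0.14, and none of 9 HOPS and CORVET partners, where Rilp and Vipas39 had the smallest p, at 0.19 and −0.11. None of 8 genes for the lipid PI3P passed. In these Pikfyve, the kinase that turns PI3P into PI(3,5)P2, had 165, 173 and 189.8 in knockout tubules, against 240.2, 223 and 202 in wild type tubules (log2 difference −0.33, limma adjusted p = 0.0967). Pik3c3, the kinase that makes PI3P, was at 0.35 (limma adjusted p = 0.19). None of 9 genes for endosomal receptors and other cargo passed. Sorl1 had the smallest p, at 0.20, followed by Slc11a2, an iron transporter, at −0.15.

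The 4 calls differed in how far they held across 16 alternative settings, as the plot of adjusted p by setting shows. Vps8 passed in all 16, Vps13a in 10, Snx5 in 7 and Vps53 in 4, and none of the 4 genes changed sign in any of them. With the probe sets of a gene averaged, and without any 1 of the wild type arrays, Vps8 was the 1 gene of the 71 that passed.

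**Figure D5:**
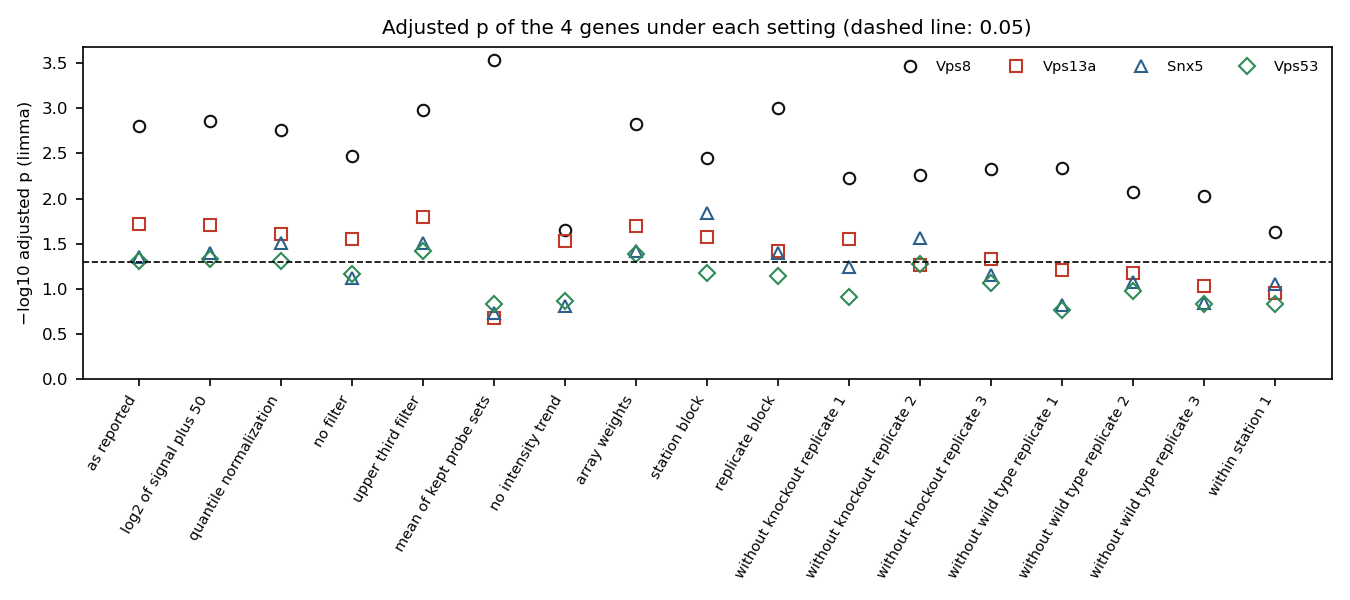
Adjusted p from limma on a −log10 scale for Vps8, Vps13a, Snx5 and Vps53 as reported and under each of 16 alternative settings; the dashed line is an adjusted p of 0.05 and points above it pass. Vps8 lies above the line throughout, while the other 3 genes cross it in several settings.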

How the data were processed

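The deposited values are MAS5 signal intensities made by the authors with GCOS 1.4, per the submitters' processing notes. Complementary DNA was primed with oligo dT and amplified once, per the labels. Of 45101 probe sets, 64 controls were dropped. Names come from the platform annotation, and 34945 probe sets carry 1 symbol. Symbols were matched to RefSeq by gene identifier, and 0 needed updating. Depth has no meaning for arrays, whose number limits precision: the median SE of a log2 difference was 0.12 over all tested genes.

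Signals were turned to log2 with no pseudocount. Probe sets whose mean reached the median were kept, and the one with the highest mean stood for the gene, which left 11620 genes. The groups were compared in limma 3.58.1 (R 4.3.3; lmFit, then eBayes with trend), two-sided, with Benjamini-Hochberg adjustment over all tested genes at 0.05. Fold changes are ratios of geometric means, while means and SDs are of linear signals. The array records call arrays of a group biological replicates. Signals on every array are given for genes that passed, the 15 genes with the smallest p, and the subunits of retromer, HOPS and VPS4; other values were added where a statement needed them. The members, roles and lists were chosen with earlier results of these data known. Of companion and marker genes, those without a probe set of 1 symbol were not analysed here, and Dennd10, a Commander gene, was left out through a misspelled list entry. Of the steps, only the limma comparison was tested on simulated data. How often it recovers differences of the sizes seen here is not reported. Alternatives changed the transform, normalization, filter, probe set choice, variance model, array weights and blocks, or left out arrays. Motifs were searched, and plots drawn, with Python 3.11.15, pandas 2.3.3 and matplotlib 3.10.9.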

Additional observations from a re-analysis of the deposited data

How the results depend on the processing

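As reported, 2 Vps, Snx and Chmp genes were higher and 2 lower in knockout tubules. The same 4 genes passed with 50 added to the signal, with quantile normalization and with array weights, and the stricter filter added Vps33a. Vps8 alone rose (1 gene) with no filter, with averaged probe sets, with no intensity trend, with the fluidics station as a block, within station 1 and without each array in turn (1 to 1 genes). The lower genes numbered 1 with no filter and with no trend, 0 with averaged probe sets and within station 1, and 0 to 1 without an array. With the replicate number as a block 1 gene was higher and 2 were lower, Vps53 being lost (adjusted p = 0.0716). Same-numbered arrays shared little (r of deviations −0.0342 to 0.0311), so the number was not taken to pair them. Of the companions, 0 were higher, but Tsg101 passed (1 gene) with the stricter filter, array weights, the replicate block and without knockout array 1 (0 to 1 over left-out arrays). Ehd1, the 1 lower companion, was lost (0 genes) with no filter, averaged probe sets, no trend, either block, within station 1 and without 5 of the arrays (0 to 1). The cause of these changes was not tested. The setting within station 1 was chosen after seeing the data. Of the 18 Vps, Snx and Chmp genes that did not pass and whose values were followed through every alternative, 17 passed in none, while Vps11, Vps26a and Vps26b, none of which passed anywhere, changed sign in at least 1. Over all genes 458 to 826 passed by setting, against 753 as reported. With 3 arrays per group, pooled RNA and no detection calls, small differences and dim genes are not resolved.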
